A study of Sus scrofa with 8 samples.

Results

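Oxidative phosphorylation was followed through 4 stages of pig (Sus scrofa) cells on the way from pluripotency to lung: pluripotent stem cells (PSC), definitive endoderm (DE, the germ layer of gut and lung), anterior foregut endoderm (AFE, the gut tube's front, where the lung bud forms) and lung progenitor organoids (LPO). The genes described are the 113 of 25578 genes in the deposited table that the table's own KEGG annotation places in the pathway of that name. Each stage had 2 messenger RNA libraries, numbered 1 and 2, and pairs of values below are given in that order. The labels name the stages and no cell line, genotype, medium, agent or day, and no pooling. The columns of deposited values give the PSC libraries the name EPSC. They do not say whether libraries 1 and 2 of a stage are from separate cultures, so p-values describe only how far these samples spread, and that spread may be technical. The 113 genes fell into 35 of complex I, 4 of complex II, 9 of complex III, 23 of complex IV, 14 of complex V, 23 of the vacuolar ATPase and 5 others. A symbol was given for 98 of them. The other 15 were placed by their KEGG, description or gene ontology entries and are called by their Ensembl identifiers. Coordinates are those of the table, whose genome build was not given in the sources used here, and the mitochondrially encoded subunits were not analysed here.

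Complexes I and II of the mitochondrial inner membrane pass electrons from NADH and succinate to ubiquinone, complex III passes them on to cytochrome c, and complex IV passes them to oxygen. Complexes I, III and IV pump protons as they work, and complex V, the ATP synthase, uses the proton gradient to make ATP. The vacuolar ATPase runs the other way, spending ATP in its V1 part to pump protons through its V0 part into lysosomes, endosomes and Golgi, and KEGG lists it in the same pathway. Pluripotent cells are known to rely strongly on glycolysis, and the adult lung's secretory alveolar cells are known to be rich in mitochondria.

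The libraries held 36004372 and 42251431 counts in PSC and 61748702 to 67566269 in the other stages. With about 4 counts taken as 1 read pair, an assumption drawn from low counts, the depth would be about 9001093 to 16891567 read pairs. Library 1 differed from library 2 by a median absolute log2 ratio over the members of 0.164 for PSC, 0.084 for DE, 0.055 for AFE and 0.068 for LPO, and 97.3% to 100% of members lay within 2-fold. The 5 PSC markers summed to 52.6 and 51.2 counts per 1e6 counts (CPM, after TMM scaling) in LPO, against 7406 and 8168 CPM in PSC. The PSC sum was mostly POU5F1 and DNMT3B, and the LPO sum was mostly SOX2 and DNMT3B. Of the 5, 4 were called lower in LPO than in PSC, while SOX2 was higher, at 30.3 and 30.7 CPM in LPO against 6.1 and 4.43 CPM in PSC, and LIN28A was higher in DE, at 41.4 and 29.5 CPM against 3.97 and 5.23 CPM in PSC. The lung regulator NKX2-1 and the surfactant genes SFTPB and SFTPC were at 0 in PSC and DE, SFTPC was at 0 in AFE too, and none was at 0 in LPO. NKX2-1 had 33.7 and 34.2 CPM in LPO against 20.2 and 19.5 CPM in AFE. SFTPB was called lower in LPO, at 4.61 and 4.18 CPM against 13.4 and 12.6 CPM in AFE. SFTPC reached only 0.262 and 0.441 CPM in LPO. Markers of DE summed highest in DE, at 1196 and 1188 CPM, but those of AFE also did, at 375 and 365 CPM in DE beside 121 and 112 CPM in AFE. The LPO markers summed to 499 and 515 CPM in LPO, against 597 and 538 CPM in AFE. The epithelial gene EPCAM made up most of both sums, with 279 and 291 CPM in LPO against 526 and 474 CPM in AFE, whereas SOX9 had 154 and 164 CPM in LPO against 16.9 and 15.8 CPM in AFE. Mesenchyme markers summed to 6367 and 6544 CPM in LPO, against 373 and 378 CPM in AFE. In such bulk samples, fewer cells of a type and less RNA per cell cannot be told apart.

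The respiratory complexes and the ATP synthase were most abundant in PSC and least abundant in LPO. In a share of all FPKM (reads scaled by gene length and library size), the 85 genes of complexes I to V held 3.06% and 3.05% in PSC, 1.95% and 1.99% in DE, 1.64% and 1.64% in AFE, and 0.744% and 0.745% in LPO. No library of a stage overlapped one of another stage. The sum in LPO was thus 0.244 times that in PSC on the FPKM scale and 0.164 times on the CPM scale. The vacuolar ATPase followed another course: its 23 genes held 0.130% and 0.120% of FPKM in PSC, 0.214% and 0.230% in DE, 0.172% and 0.174% in AFE, and 0.204% and 0.203% in LPO. Its sum was highest in DE on both scales, but its place in LPO depended on the scale. The peak in DE on the FPKM scale rested on 1 gene: without ENSSSCG00000008056, the most abundant member, the mean share was 0.106% in PSC and 0.146% in DE, then 0.111% in AFE and 0.157% in LPO. On the FPKM scale the LPO sum was 1.62 times the PSC sum and 1.17 times the AFE sum, whereas on the CPM scale it was 0.900 and 0.729 times. ENSSSCG00000008056 is overlapped on the same strand by AMDHD2, which held 0.326 times its counts. AMDHD2 changed by 1.57 in DE against PSC, -0.19 in AFE against DE and -2.46 in LPO against AFE. Its part in the DE peak was not tested.

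**Figure D1:**
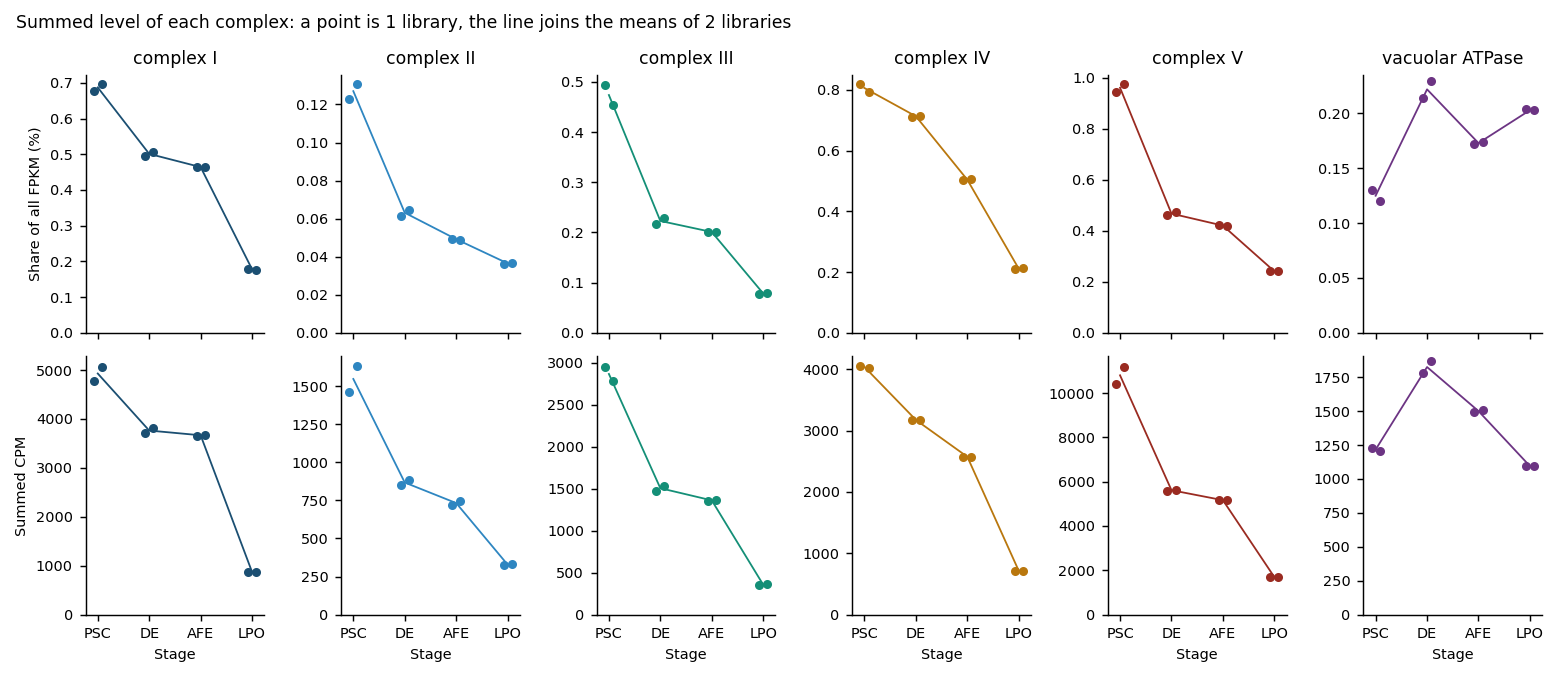
Summed level of the members of complexes I to V and of the vacuolar ATPase in each library (points) at the 4 stages, as a share of all FPKM in percent (top) and in CPM (bottom), with a line through the stage means. Complexes I to V stand highest in PSC and lowest in LPO on both scales, while the vacuolar ATPase is highest in DE and is above PSC in LPO by FPKM but below it by CPM.

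Of the 113 genes, 111 passed the filter on low counts and were tested. The 2 that did not, COX7B2 (a testis form of a complex IV subunit) and ENSSSCG00000054196, reached at most 0.0346 and 0.104 CPM in any library. Among the tested members, 108 differed among the 4 stages at an adjusted p under 0.05 (edgeR quasi-likelihood F test), against 79.2% of all 19346 tested genes. Of the 82 members of complexes I to V that differed, 59 (72.0%) had their highest mean in PSC, against 26.7% of all genes that differed. The lowest mean was in LPO for 77 of the 82, against 4699 of all 15323 genes that differed. All members of complexes II, III and V peaked in PSC. Among the 22 vacuolar ATPase members that differed, 9 peaked in DE, 8 in PSC, 3 in AFE and 2 in LPO. Of all genes that differed, 16.7% peaked in DE, 26.7% in PSC, 17.6% in AFE and 38.9% in LPO.

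**Figure D2:**
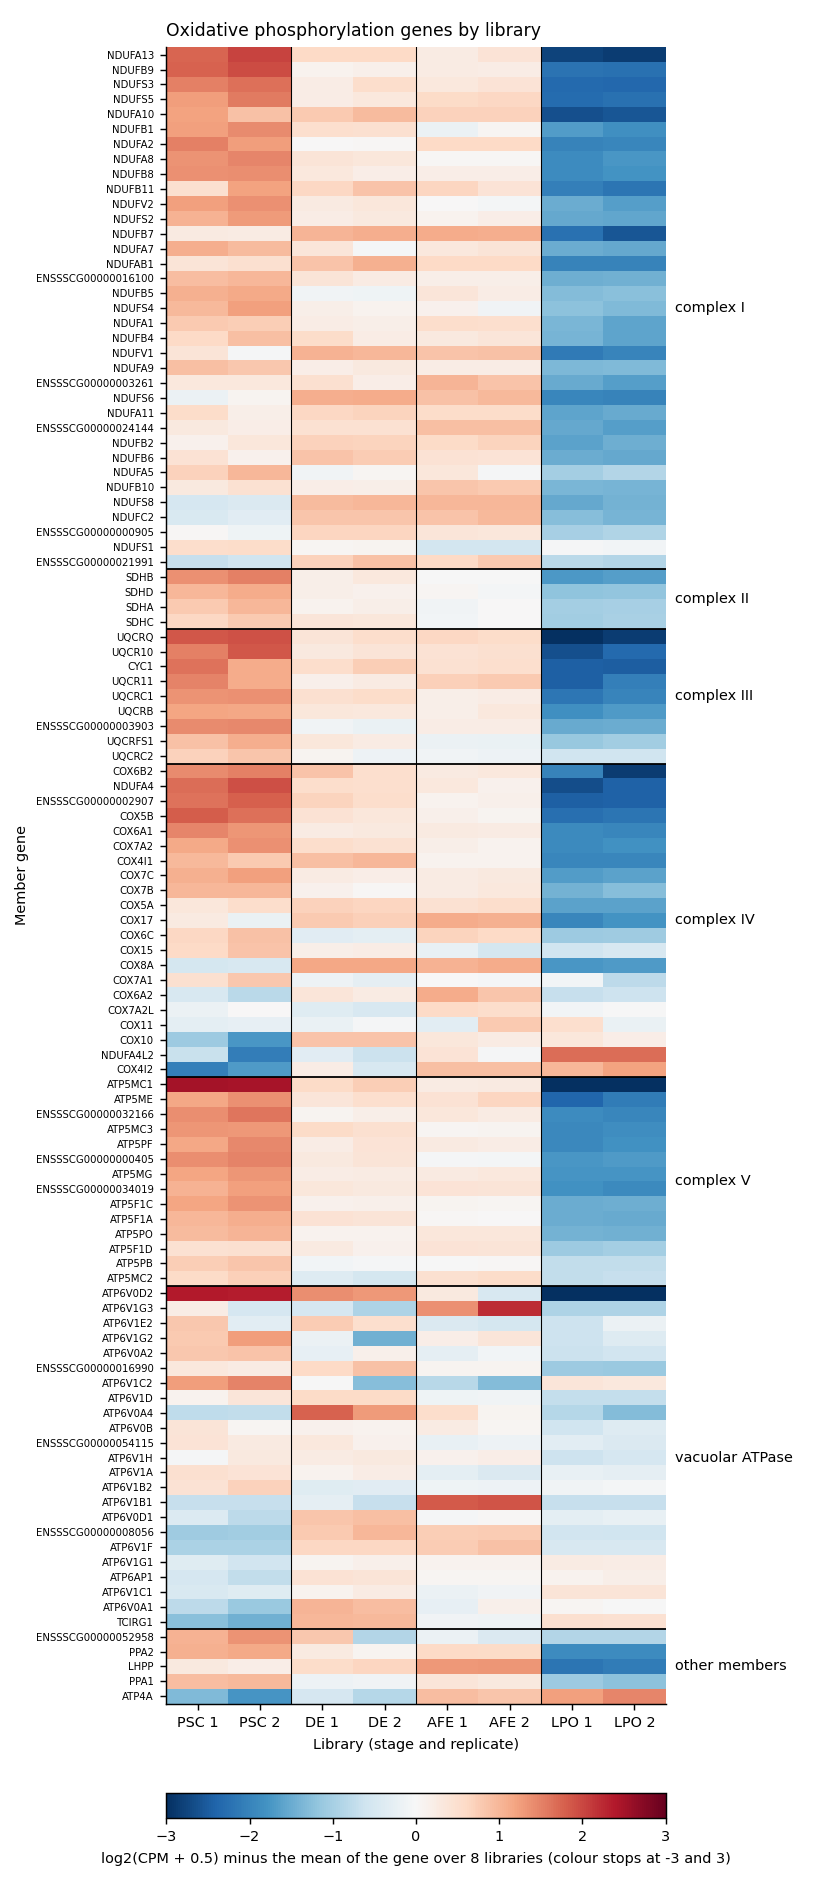
Log2(CPM + 0.5) of the 111 tested members in the 8 libraries, each minus its mean over the libraries, grouped by complex and ordered within a group by the log2 change of LPO against PSC; the colour scale stops at -3 and 3. Most rows of complexes I to V pass from high in PSC to low in LPO, and the rows of the vacuolar ATPase do not share a course.

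The comparison of DE with PSC asks what changed as cells left pluripotency. Here 64 members were lower in DE, against 23.0% of all tested genes, and 29 were higher, against 30.8% of all tested genes. The falls took in all 4 members of complex II, all 9 of complex III and all 14 of complex V. Complexes I and IV were mixed, with 18 lower and 10 higher of 35 in complex I and 11 lower and 6 higher of 21 in complex IV. The median log2 change was -0.81 over complexes I to V and 0.08 over all genes. The vacuolar ATPase ran the other way, with 11 members higher and 6 lower of 23 and a median of 0.47. Of 3 liver markers, 1 was called higher in DE and their sum was 13445 and 13162 CPM in DE against 31.3 and 28.6 CPM in PSC. Almost all of that sum was APOA1, and TTR was at 0 in both stages. All 6 mesenchyme markers were also higher (298 and 146 CPM in sum in DE against 13.6 and 15.6 CPM in PSC), as were 3 of 4 endothelium and blood markers (88.8 and 51.0 CPM against 3.15 and 3.06 CPM in PSC) and 3 of 6 cardiac and striated muscle markers, and the part of such cells was not tested.

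AFE against DE was the step with the fewest changes among the members. Of the 111 tested, 27 were lower in AFE, against 17.4% of all genes, and 19 were higher, against 17.9% of all genes. The median log2 change of complexes I to V was -0.07, with 18 lower and 14 higher of 83. Both counts fell without AFE library 1, AFE library 2 or DE library 2, where 1 library was left in that stage. The number of all genes called fell as well, so this cannot show whether a particular library sets the counts. In the vacuolar ATPase 9 members were lower and 1 was higher, with a median of -0.37. In the same step the liver markers, mostly APOA1, summed to 257 and 273 CPM in AFE against 13445 and 13162 CPM in DE. The cardiac and striated muscle markers (2 higher and 2 lower of 6) summed to 239 and 252 CPM in AFE against 112 and 72.5 CPM in DE, and the part of such cells was not tested.

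LPO against AFE was the step with the broadest fall. The number of members lower in LPO was 90, against 29.6% of all genes, and 5 were higher, against 30.2% of all genes. In complexes I to V, 76 of 83 fell and 2 rose, with a median log2 change of -2.06 beside 0.09 over all genes. The number lower was 74 to 76 under the alternative normalizations, filters and tests and with any library left out. In the same step 5 of 6 mesenchyme markers rose and 1, ACTA2, fell. The cardiac and striated muscle markers (1 higher and 2 lower of 6) summed to 11.4 and 12.3 CPM in LPO against 239 and 252 CPM in AFE, and the part of such cells in the falls was not tested. In the vacuolar ATPase 11 fell and 3 rose, but 7 fell and 9 rose with limma on FPKM, so its balance in this step depends on the scale.

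Over the whole course, 91 members were lower in LPO than in PSC, against 28.8% of all genes, and 12 were higher, against 41.5% of all genes. All 6 mesenchyme markers and 3 of 4 endothelium and blood markers were higher in LPO than in PSC, and their part was not tested. A fall of 2-fold or more was called for 82 members, against 22.0% of all genes, and 73 of them belonged to complexes I to V. The median log2 change was -2.46 over complexes I to V, -2.39 in complex I, -2.08 in complex II, -3.46 in complex III, -2.03 in complex IV and -3.03 in complex V, beside 0.49 over all genes. Falls at all 3 consecutive steps were called for 13 members (11.7%), against 1.43% of all genes. The comparisons of DE and of LPO with PSC share the PSC libraries.

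**Figure D3:**
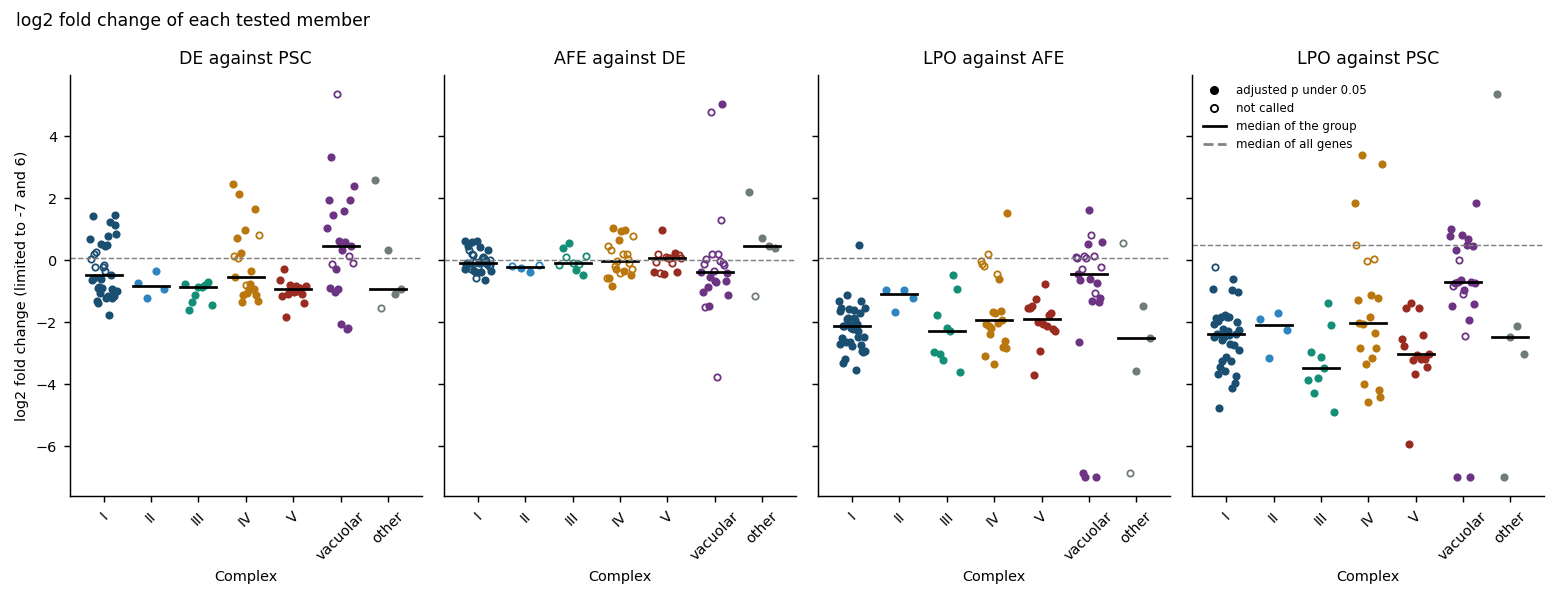
Log2 fold change of each tested member, by group, for the consecutive steps from PSC to LPO and for the whole course; filled points have an adjusted p under 0.05 (edgeR), black bars are group medians, the dashed line is the median of all genes, and values beyond -7 and 6 are drawn at the edge. Complexes I to V lie near 0 in AFE against DE and mostly below -1 in LPO against AFE and LPO against PSC, while the vacuolar ATPase straddles 0.

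Complex I has a peripheral arm in the matrix, where NADH is oxidised, and a membrane arm that pumps protons, and its subunits were called in both directions before the last step. In DE against PSC, 5 of 15 peripheral-arm members rose and 9 fell, and 4 of 18 membrane-arm members rose and 9 fell, beside 30.8% of all genes called higher and 23.0% called lower. In LPO against AFE all 18 membrane-arm members fell (median -2.16) and 14 of 15 peripheral-arm members fell (median -1.71), against 29.6% of all genes. The most abundant member was NDUFB10, a membrane-arm subunit, at a mean of 159 FPKM, and the least abundant with a symbol was NDUFA5, a peripheral-arm subunit, at 2.84 FPKM.

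NDUFS8, a core iron-sulfur subunit of the peripheral arm on chromosome 2 (4862589 to 4867393), is an example of a rise before the fall. Its level was 88.8 and 92.9 CPM in PSC, 243 and 254 CPM in DE, 252 and 252 CPM in AFE, and 43.1 and 46.8 CPM in LPO. DE and AFE thus stood above PSC without overlap, and LPO stood below it. The log2 change was 1.45 in DE against PSC (SE 0.0711, adjusted p = 2.2e-06, edgeR) and -2.49 in LPO against AFE (SE 0.0734, adjusted p = 2.5e-07, edgeR). The membrane-arm subunit NDUFC2 did the same, at 97.1 and 97.6 CPM in DE against 39.8 and 42.9 CPM in PSC, and at 22.2 and 20.4 CPM in LPO against 99.6 and 107 CPM in AFE. NDUFB7 had 107 and 112 CPM in DE against 63.6 and 63.0 CPM in PSC, and its log2 change of -3.55 in LPO against AFE had the largest size in complex I. An overlapping gene on the opposite strand, which held 2.38 times its counts, changed by -1.92 in that step.

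NDUFB9 and NDUFA13, accessory subunits of the membrane arm, fell at the first step already and had the largest falls of complex I from PSC to LPO among the genes with a symbol. NDUFB9 (chromosome 4, 15108696 to 15113290) had 365 and 419 CPM in PSC, 114 and 118 CPM in DE, 126 and 125 CPM in AFE, and 22.7 and 22.3 CPM in LPO. Its log2 change in LPO against PSC was -4.12 (SE 0.0903, adjusted p = 4.1e-08, edgeR). NDUFA13 (chromosome 2, 58401551 to 58411981) had 270 and 325 CPM in PSC, 121 and 121 CPM in DE, 93.9 and 105 CPM in AFE, and 11.2 and 10.6 CPM in LPO. Its log2 change was -4.76 (SE 0.119, adjusted p = 4.8e-08, edgeR), and its LPO libraries lay below every library of the other stages. NDUFA10, another membrane-arm subunit, had 22.6 and 23.6 CPM in LPO against 230 and 232 CPM in AFE, while its change in DE against PSC was -0.20 (adjusted p = 0.17, edgeR) but was called with DESeq2 (-0.35).

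NDUFS1, the largest core subunit of the peripheral arm, was the exception to the fall from AFE to LPO. It had 102 and 105 CPM in PSC, 74.3 and 75.4 CPM in DE, 48.5 and 48.2 CPM in AFE, and 69.4 and 67.0 CPM in LPO. The log2 change was 0.50 in LPO against AFE (SE 0.0706, adjusted p = 0.00045, edgeR) and -0.60 in LPO against PSC. It shares its locus with the translation factor gene EEF1B2 on the opposite strand, which held 25.3 times its counts and changed by -2.47 in LPO against AFE.

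Complex II, succinate dehydrogenase, is encoded wholly in the nucleus and also serves the citric acid cycle. SDHB, its iron-sulfur subunit and most abundant member, had 514 and 567 CPM in PSC, 223 and 247 CPM in DE, 196 and 196 CPM in AFE, and 60.0 and 62.4 CPM in LPO. LPO was thus the lowest stage and PSC the highest, with no overlap between stages. Its log2 change in LPO against PSC was -3.14 (SE 0.0826, adjusted p = 5.5e-08, edgeR). The flavin-bearing SDHA changed by -1.90 and the membrane anchors SDHC and SDHD by -1.71 and -2.26. From AFE to LPO the complex had a median of -1.08, so it lost less in that step than complex I or III, a difference that was not tested. The genes DLAT and TIMM8B overlap SDHD and hold 0.661 and 0.600 times its counts.

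Complex III joins core proteins, the redox subunits cytochrome c1 (CYC1) and the Rieske protein (UQCRFS1), and a set of small subunits. All 9 members fell in DE against PSC, in LPO against AFE and in LPO against PSC, beside 23.0%, 29.6% and 28.8% of all genes. The small subunits had a median log2 change of -4.04 in LPO against PSC, while the redox subunits had -2.97 and the core proteins -2.42. UQCRQ, a small subunit on chromosome 2 (135186501 to 135188293), had 283 and 294 CPM in PSC, 101 and 111 CPM in DE, 120 and 114 CPM in AFE, and 9.10 and 10.3 CPM in LPO. Its log2 change of -4.89 in LPO against PSC (SE 0.102, adjusted p = 4e-08, edgeR) had the largest size in the complex. CYC1, the most abundant member, had 56.8 and 55.9 CPM in LPO against 964 and 673 CPM in PSC. Its PSC libraries differed from each other more than those of the other stages did. UQCRFS1 had 86.5 and 91.8 CPM in LPO against 353 and 405 CPM in PSC.

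Complex IV, cytochrome c oxidase, had 3 of 21 members called higher (41.5% of all genes) and 15 lower (28.8%) in LPO against PSC. Its most abundant member, COX4I1, the common form of subunit 4, had 1348 and 1183 CPM in PSC, 1288 and 1360 CPM in DE, 736 and 739 CPM in AFE, and 177 and 177 CPM in LPO. PSC and DE overlapped, and the fall began in AFE. Its log2 change was 0.07 in DE against PSC (adjusted p = 0.47, edgeR), -0.84 in AFE against DE (SE 0.0697, adjusted p = 8e-05, edgeR) and -2.06 in LPO against AFE (SE 0.072, adjusted p = 4.1e-07, edgeR). COX5B, a zinc-binding subunit, fell at the first step instead, with 151 and 141 CPM in DE against 396 and 350 CPM in PSC, and had 22.7 and 23.9 CPM in LPO.

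COX8A, the common form of subunit 8, rose and then fell like NDUFS8. It had 100 and 103 CPM in PSC, 324 and 324 CPM in DE, 297 and 313 CPM in AFE, and 43.1 and 44.4 CPM in LPO. The log2 change was 1.67 in DE against PSC (SE 0.0635, adjusted p = 8.2e-07, edgeR) and -2.80 in LPO against AFE (SE 0.0661, adjusted p = 1.6e-07, edgeR). COX7A2L, which joins complexes III and IV in supercomplexes, had 105 and 110 CPM in LPO against 97.4 and 111 CPM in PSC (log2 change 0.04, adjusted p = 0.68, edgeR). The change depended on the scale: it was -0.44 and called after centring on the median of all genes, and 0.43 to 0.45 and called with limma on FPKM.

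The 3 members of complexes I to V that were higher in LPO than in PSC all belonged to complex IV: COX4I2, NDUFA4L2 and the assembly factor COX10. COX10, which makes heme O for the oxidase, had 8.08 and 7.2 CPM in LPO against 2.65 and 1.52 CPM in PSC. The log2 change was 1.86 (SE 0.272, adjusted p = 0.00043, edgeR) in LPO against PSC, beside 2.47 in DE against PSC (adjusted p = 0.00015, edgeR) and -0.58 in AFE against DE (adjusted p = 0.115, edgeR). The copper carrier COX17, listed with the assembly factors, fell instead, with 4.45 and 5.12 CPM in LPO against 41.5 and 40.1 CPM in AFE. COX6B2, known as the testis form of subunit 6B, had 1.03 and 0.352 CPM in LPO against 15.9 and 17.1 CPM in PSC.

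Several subunits are encoded by sets of genes, and the mix of forms shifted between the stages. COX4I2, the second form of subunit 4, is known in mammals from lung and from cells at low oxygen (chromosome 17, 35341889 to 35346090). It had 1.07 and 1.49 CPM in PSC, 7.13 and 4.12 CPM in DE, 11.7 and 11.7 CPM in AFE, and 12.5 and 14.4 CPM in LPO. All stages after PSC lay above it, and the log2 change in LPO against PSC was 3.4 (SE 0.322, adjusted p = 3.2e-05, edgeR). As COX4I1 fell meanwhile, the share of COX4I2 in the summed FPKM of both was 0.114% and 0.180% in PSC, 0.802% and 0.439% in DE, 2.26% and 2.26% in AFE, and 9.32% and 10.7% in LPO.

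NDUFA4 and its relative NDUFA4L2 shifted in the same way. NDUFA4, once counted in complex I and now in complex IV, had 209 and 250 CPM in PSC, 94.4 and 91.8 CPM in DE, 81.2 and 70.9 CPM in AFE, and 9.85 and 11.7 CPM in LPO, a log2 change of -4.41 in LPO against PSC (SE 0.141, adjusted p = 1.1e-07, edgeR). NDUFA4L2, known as a low-oxygen response gene in human and mouse cells, had 3.37 and 0.951 CPM in PSC, 4.31 and 3.42 CPM in DE, 7.7 and 5.5 CPM in AFE, and 18.9 and 19.0 CPM in LPO. Its log2 change in LPO against PSC was 3.12 (SE 0.5, adjusted p = 0.00073, edgeR). The rise from AFE to LPO (1.52, adjusted p = 0.021, edgeR) was no longer called when any library of these 2 stages was left out (adjusted p = 0.0566 to 0.129). NDUFA4L2 made up 42.4% and 38.4% of their joint FPKM in LPO, against 0.608% and 0.140% in PSC. It overlaps SHMT2 on the opposite strand, which held 14.7 times its counts and changed by -2.18 in LPO against PSC.

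COX6A2, known as the heart and muscle form of subunit 6A, made up 44.3% and 46.4% of the summed FPKM of subunit 6A in LPO, against 8.12% and 7.14% in PSC. COX6A1, the common form, fell to 38.3 and 37.1 CPM in LPO, against 402 and 364 CPM in PSC. COX6A2 itself had 9.31 and 9.86 CPM in LPO against 10.9 and 8.59 CPM in PSC (log2 change -0.02, not called, but 0.37 to 0.39 and called with limma on FPKM, and -0.51 and called after centring on the median of all genes), and peaked at 33.7 and 27.5 CPM in AFE. Cardiac and striated muscle markers also summed highest in AFE, with 10.8 and 10.9 CPM in PSC, 112 and 72.5 CPM in DE, 239 and 252 CPM in AFE, and 11.4 and 12.3 CPM in LPO. The AFE sum was almost all MYH7 (193 and 200 CPM) and MYH6 (44.7 and 50.0 CPM). NPPA was at 0 in AFE and peaked in DE, as did TNNT2, while ACTC1 peaked in PSC and ACTN2 in LPO. The part of muscle cells in the level of COX6A2 was not tested.

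All 14 members of complex V, the ATP synthase, were lower in DE than in PSC, against 23.0% of all genes. All 14 of the complex were also lower in LPO than in AFE (29.6% of all genes) and than in PSC (28.8%). Its most abundant member was ENSSSCG00000000405, the catalytic beta subunit of the F1 head by its KEGG entry (chromosome 5, 21984584 to 21992606). It had 2459 and 2640 CPM in PSC, 1152 and 1230 CPM in DE, 922 and 908 CPM in AFE, and 280 and 288 CPM in LPO, and no libraries of different stages overlapped. The log2 change in LPO against PSC was -3.17 (SE 0.0624, adjusted p = 3.5e-08, edgeR). The alpha subunit ATP5F1A changed by -2.54 and the central stalk subunit ATP5F1C by -2.75. ATP5ME, a small membrane subunit, had 3.24 and 4.09 CPM in LPO against 43.4 and 50.1 CPM in PSC.

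The c subunit, of which the rotating ring is built, is encoded by 3 genes that give the same mature protein, and they parted widely. ATP5MC1 (chromosome 12, 25110528 to 25113478) had 554 and 540 CPM in PSC, 146 and 162 CPM in DE, 116 and 117 CPM in AFE, and 7.42 and 10.6 CPM in LPO. Its log2 change in LPO against PSC, -5.92 (SE 0.175, adjusted p = 8.5e-08, edgeR), was the lowest in complexes I to V. ATP5MC2 had 439 and 480 CPM in PSC, 225 and 204 CPM in DE, 411 and 432 CPM in AFE, and 174 and 180 CPM in LPO, so that it recovered in AFE before it fell (0.98 in AFE against DE, SE 0.0759, adjusted p = 6e-05, edgeR). ATP5MC3 changed by -3.21 in LPO against PSC. Of their summed FPKM, ATP5MC1 held 13.6% and 17.9% in LPO against 75% and 73.7% in PSC, while ATP5MC2 held 69.1% and 65.5% in LPO against 12.8% and 14.2% in PSC. No source used here says how reads shared between such related genes were counted.

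**Figure D4:**
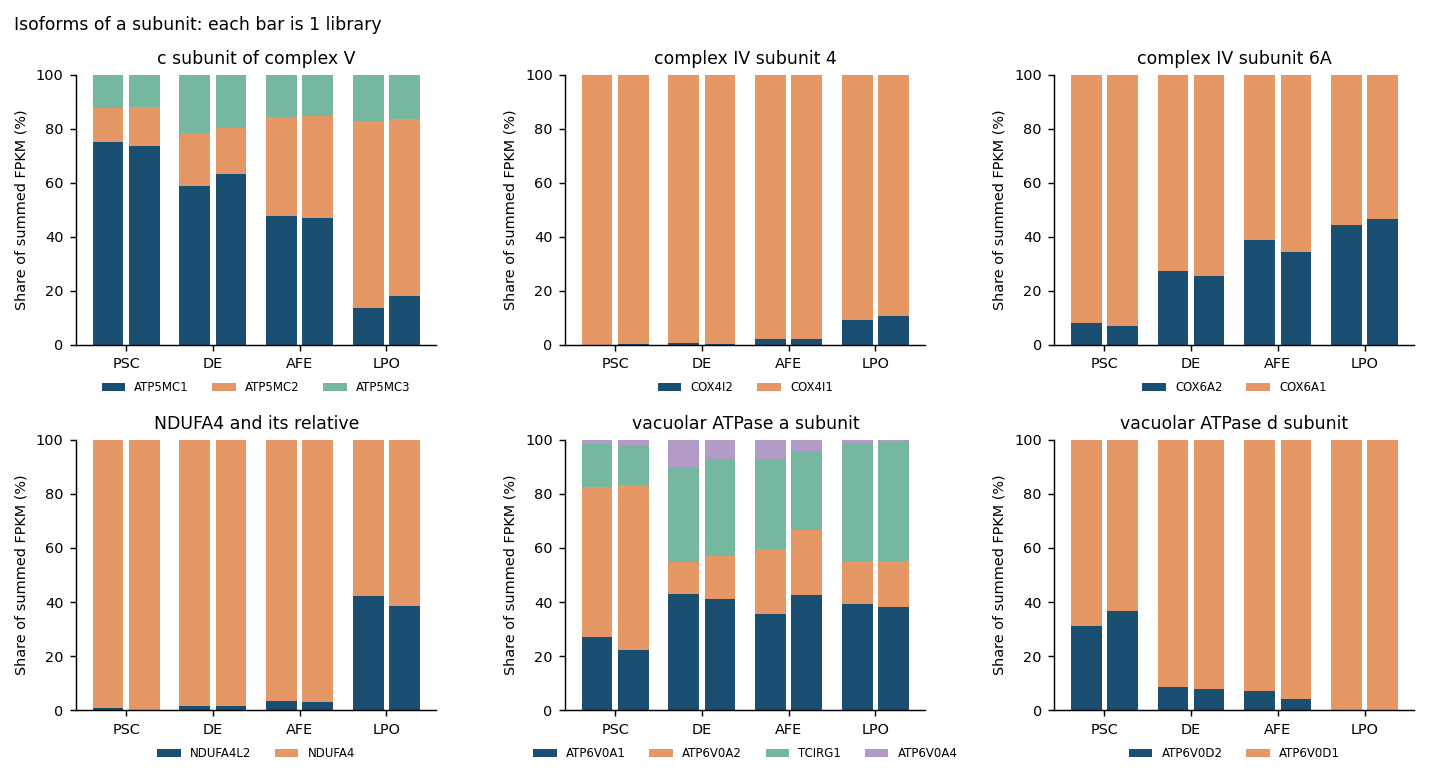
Share of each gene in the summed FPKM of the genes for the same subunit (percent, stacked bars, 1 bar per library) for the complex V c subunit, complex IV subunits 4 and 6A, NDUFA4 with NDUFA4L2, and the vacuolar ATPase a and d subunits. ATP5MC2 passes ATP5MC1 in LPO, NDUFA4L2 reaches 42.4% and 38.4% in LPO, and ATP6V0D2 has 0.107% and 0% of the d subunit in LPO, against 31.0% and 36.6% in PSC.

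In the V0 part of the vacuolar ATPase, which spans the membrane, 6 of 9 members were higher and 2 lower in DE than in PSC (median 1.45). In the V1 part in the cytosol 4 of 13 were higher and 4 lower (median 0.13), beside 30.8% of all genes called higher and 23.0% called lower, and the difference between the parts was not tested. ENSSSCG00000008056, placed in V0 by its gene ontology entry, was the most abundant at a mean of 218 FPKM, with 425 and 494 CPM in DE against 118 and 119 CPM in PSC. It had 166 and 163 CPM in LPO, a log2 change of 0.47 against PSC that became -0.01 after centring on the median of all genes. AMDHD2 overlaps it on the same strand, with 0.326 times its counts. The V1 subunit ATP6V1F had 103 and 102 CPM in DE against 34.0 and 34.0 CPM in PSC, and 47.8 and 47.4 CPM in LPO against 113 and 123 CPM in AFE.

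The a subunit of V0, which sets where in the cell the pump works, changed its mix of forms. ATP6V0A2, the form known from Golgi and endosomes, held 15.9% and 17.1% of the summed a-subunit FPKM in LPO against 55.5% and 61.2% in PSC. TCIRG1, the a3 form known from lysosomes and the osteoclast border (chromosome 2, 4844637 to 4860498), held 43.7% and 44.3% in LPO against 16.0% and 14.8% in PSC. It had 10.3 and 9.03 CPM in PSC, 50.8 and 50.3 CPM in DE, 23.6 and 22.9 CPM in AFE, and 35.2 and 35.0 CPM in LPO. Its rise in DE, fall in AFE and second rise in LPO were each larger than the spread between libraries, with log2 changes of 2.39 (SE 0.107, adjusted p = 1.6e-06, edgeR), -1.12 (SE 0.101, adjusted p = 0.00013, edgeR) and 0.59 (SE 0.1, adjusted p = 0.0012, edgeR). CHKA, on the opposite strand and with 1.53 times its counts, changed by 1.48, 0.09 and -1.21 in the same steps. ATP6V0A1, the form known from neurons, held 26.9% and 22.2% in PSC, 43.1% and 41.1% in DE, 35.7% and 42.5% in AFE, and 39.2% and 38.2% in LPO, so that it led in DE and AFE and came close to TCIRG1 in LPO. It had 52.6 and 48.8 CPM in DE against 14.6 and 11.5 CPM in PSC. ATP6V0A4, the kidney form, stayed at or below 4.55 CPM in all libraries.

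The d subunit changed from a mixed to a single form. ATP6V0D2, known from osteoclasts, kidney and lung (chromosome 4, 50694189 to 50749378), had 34.2 and 34.0 CPM in PSC, 17.2 and 16.2 CPM in DE, 7.72 and 4.29 CPM in AFE, and 0.0998 and 0 CPM in LPO. Each stage lay below the one before it, and in LPO about 2 read pairs were left. The ratio of PSC over LPO was 682, with a 95% counting interval of 188 to 5644 that covers counting error only. The call in DE against PSC was lost when any library of these stages was left out, and that in AFE against DE without either DE library or AFE library 2 (adjusted p = 0.0532 to 0.144, edgeR). ATP6V0D1, the common form, had 147 and 154 CPM in DE against 62.0 and 48.0 CPM in PSC and 66.8 and 70.2 CPM in LPO.

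Among the V1 subunits, a pair of forms known from kidney were detected in AFE but not in LPO at this depth. ATP6V1B1 was at 0 in both LPO libraries and had 2.4 and 2.47 CPM in AFE, which makes it at least 16.2-fold lower in LPO against a floor of 3 read pairs per library (adjusted p = 0.0076 with edgeR and 0.061 with DESeq2). ATP6V1G3 was at 0 in LPO and had 1.96 and 3.93 CPM in AFE, at least 19.6-fold lower. Markers of ionocytes and kidney intercalated cells, which use these forms, summed to 19.0 and 18.5 CPM in LPO, against 4.47 and 3.78 CPM in AFE. The markers went different ways: FOXI1 was at 0 in LPO, against 2.06 and 2.42 CPM in AFE. CFTR made up almost all of the LPO sum, with 19.0 and 18.4 CPM against 2.33 and 1.37 CPM in AFE. SLC4A1 stayed at or below 0.113 CPM in all libraries, and the part of such cells was not tested. The common forms ATP6V1B2 and ATP6V1G1 had 133 and 137 CPM and 159 and 155 CPM in LPO. Of the C subunits, ATP6V1C1 had 19.9 and 20.2 CPM in LPO against 10.9 and 11.7 CPM in PSC (log2 change 0.83, adjusted p = 0.00052, edgeR), while ATP6V1C2 had 5.81 and 5.54 CPM in LPO against 11.1 and 13.2 CPM in PSC (log2 change -1.10, adjusted p = 0.058, edgeR). The fall of ATP6V1C2 was called under 8 alternatives, DESeq2 among them (adjusted p = 0.0187), and over all alternatives its adjusted p was 0.00244 to 0.197. PDIA6, on the strand opposite to ATP6V1C2, holds 128 times its counts.

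Of the 5 other members, 3 split pyrophosphate, 1 is a proton pump of another family, and 1 has no role in the table. The cytosolic pyrophosphatase PPA1 had 47.8 and 43.0 CPM in LPO against 194 and 200 CPM in PSC, and the mitochondrial PPA2 had 15.6 and 15.5 CPM in LPO against 124 and 130 CPM in PSC. The phosphatase LHPP rose to 72.9 and 75 CPM in AFE, against 43.1 and 46.1 CPM in DE, and had 6 and 6.46 CPM in LPO. ATP4A, the gastric proton pump, had 3.49 and 4.20 CPM in LPO against 0.174 and 0 CPM in PSC, where it rested on about 2 read pairs. ENSSSCG00000052958, the gene without a role, was at 0 in LPO and averaged 1.62 CPM in PSC.

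Among the genes that build the complexes, more were called lower than higher in LPO against PSC, where 28.8% of all genes were called lower and 41.5% higher. Of the 15 complex I assembly factors, 13 were lower in LPO than in PSC and none was higher (median log2 change -1.79), with NDUFAF4 at 1.51 and 1.04 CPM in LPO against 54.7 and 57.9 CPM in PSC. Of 25 assembly factors of complexes II to IV, 17 were lower and 5 higher. Of 6 of complex V, 4 were lower and none higher. The members of complex IV also include 4 assembly factors, COX10 and COX17 among them. The list for complexes II to IV may therefore share genes with the members. The regulators of mitochondrial biogenesis and transcription were lower in 12 of 19 and higher in 2. TFB2M, which opens mitochondrial promoters, had 2.83 and 2.61 CPM in LPO against 51.4 and 52.3 CPM in PSC, and TFAM, which packs mitochondrial DNA, had 38 and 33.9 CPM in LPO against 124 and 124 CPM in PSC. The coactivator PPARGC1A ran the other way at a low level, with 3.82 and 3.91 CPM in LPO against 0.546 and 0.238 CPM in PSC (log2 change 3.28, adjusted p = 0.00076, edgeR).

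Lists around the supply of electrons are read against the same 28.8% lower and 41.5% higher of all genes. In the citric acid cycle 11 of 14 genes were lower in LPO than in PSC (median log2 change -1.36) and 1, OGDH, was higher, while citrate synthase (CS) had 230 and 231 CPM in LPO against 218 and 234 CPM in PSC. Among 11 genes around pyruvate dehydrogenase, 5 were lower and 3 higher, with a median of -0.07. The higher ones included PDK4, a kinase that switches the enzyme off, at 12 and 11.9 CPM in LPO against 0.198 and 0.357 CPM in PSC. Carriers were lower in 6 of 9 and higher in 1, with the uncoupling protein UCP2 at 10.3 and 10.9 CPM in LPO against 126 and 94.3 CPM in PSC. Of 9 genes of mitochondrial antioxidant defence, 8 were lower and none higher.

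Among regulators of the vacuolar ATPase and genes of glycolysis, more were called higher than lower in LPO against PSC, as over all genes (41.5% higher, 28.8% lower). Of 14 regulators, 9 were higher and 2 lower in LPO than in PSC, with a median log2 change of 0.86 beside 0.49 over all genes. The lysosome regulators TFEB and MITF were among them. TFEB had 11.3 and 11.9 CPM in LPO and was at 0 in both PSC libraries. MITF had 9.43 and 11.9 CPM in LPO against 0.595 and 0.357 CPM in PSC. The values of TFE3, also fixed by name, are not given here. The pump's accessory protein ATP6AP2 had 264 and 259 CPM in LPO against 71.3 and 64.6 CPM in PSC. Of 17 glycolysis genes, 14 were higher and 1 lower in DE than in PSC (30.8% and 23.0% of all genes), 1 was higher and 10 lower in AFE than in DE (17.9% and 17.4% of all genes), and 12 were higher and 2 lower in LPO than in PSC (median 1.53). Lactate dehydrogenase A (LDHA) had 1648 and 1656 CPM in LPO against 267 and 275 CPM in PSC, while the B form LDHB had 2.68 and 3.08 CPM in LPO against 18.4 and 21.6 CPM in PSC. The glycolysis genes named here were chosen after their values were seen.

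**Figure D5:**
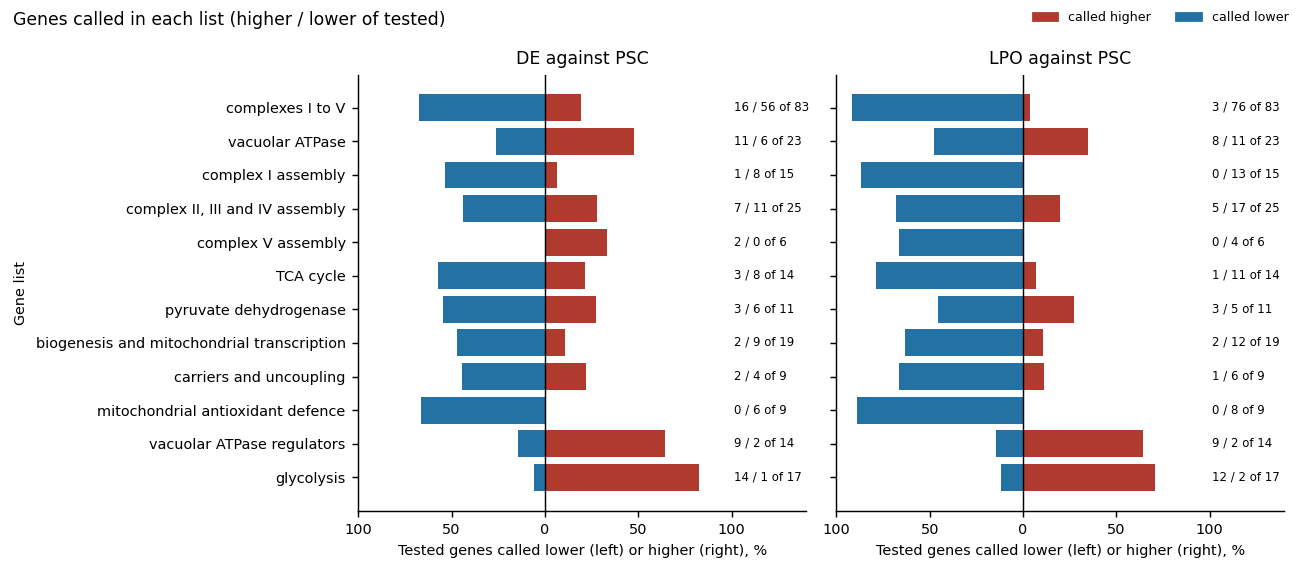
Percent of tested genes called higher or lower (adjusted p under 0.05, edgeR) in each gene list, for DE against PSC and LPO against PSC, with the counts beside the bars. In LPO against PSC the respiratory complexes, their assembly factors and the citric acid cycle lie mostly on the lower side, and glycolysis (12 higher, 2 lower) and the vacuolar ATPase regulators (9 higher, 2 lower) on the higher side.

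Gene length moved with the last step. Length here is not an annotated length but a measure derived from the deposited values. It is a gene's share of the library's counts divided by its FPKM, as a median over libraries with at least 0.5 FPKM. Across 15680 genes, Spearman's rho between length and log2 change was 0.272 in LPO against AFE and 0.139 in LPO against PSC, as a description over genes that share libraries. With genes split into 5 groups of equal number by length, the shortest group had a median of -0.84 in LPO against AFE, while the longest group had 0.66. Of the 83 tested members of complexes I to V, 43 lay in the shortest group. Taken relative to all genes in the same length group, their median was -1.62 in LPO against AFE and -2.67 in LPO against PSC, and that of the vacuolar ATPase was -0.33 and -0.95. The 33 members that overlap another gene include 21 in which that gene holds 10% or more of their counts, and no source used here says whether the counting used strand.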

How the data were processed

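Messenger RNA of 8 pig libraries, 2 for each of 4 stages, was sequenced as stranded read pairs, per the labels' protocols. Tools in the submitters' processing notes are StringTie 2.1.6, HISAT2 2.2.1, edgeR, DESeq2 and cutadapt 1.9, and the genome build was not given in the sources used here. The deposited table gives FPKM and expected counts, both computed by the authors. The deposited expected counts are whole numbers and unscaled between libraries. Values from 1 to 12 fell on 4, 8 or 12 in 46.4% to 50.7% of cases per library. From this, 1 read pair was taken as about 4 counts, an assumption, as the other low values lay off these steps. The depths in read pairs, the counting intervals and the floor of 3 read pairs (12 counts) rest on it. That floor lies at 0.150 to 0.357 CPM. Intervals and floors cover counting error only.

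The tools were R 4.3.3 (DESeq2 1.42.0, limma 3.58.1, edgeR 4.0.16) and Python 3.11.15 with pandas 2.3.3, scipy 1.17.1 and matplotlib 3.10.9. After filterByExpr 19346 genes were left, TMM factors were 0.901 to 1.27, and a quasi-likelihood model with the 4 stages was fitted to all 8 libraries (4 residual degrees of freedom) and tested on simulated data. Calls are at a Benjamini-Hochberg adjusted p under 0.05 over all tested genes. With 2 libraries a stage, the smallest p of an exact two-sided permutation test is 0.333. CPM serve comparisons between stages and FPKM those between genes.

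The members and lists were chosen with earlier results of these data known. Named members are, per group and comparison, up to 2 called rises and 2 called falls of largest size that carry a symbol and reach 5 FPKM in the higher stage, the most and least abundant member of each group, genes that share a subunit, and members that failed the filter. The rule gave 67 members, and those that were tested all enter the counts of values of named members. The text leaves out NDUFA2, NDUFB6, UQCR10, UQCR11, UQCRC1, COX15, COX7A1, COX7A2, COX7B, ATP5PO, ATP6V1E2, ATP6V1G2 and ATP6V1H. SDHA and ENSSSCG00000052958 were added after their values were seen. Listed genes are named by the same rule in LPO against PSC, apart from CS, OGDH and the glycolysis genes, and regulators fixed by name. Of the genes fixed by name, the values of PPARGC1B, NRF1, ESRRA, TFE3, SLC25A4, SLC25A5 and SLC25A6 are not given. Alternatives were DESeq2 size factors, median centring, other filters, counts divided by 4, a Wald test in DESeq2, limma on log2 FPKM (pseudocounts 1, 0.5 and 0.1), only the libraries compared, the replicate number as a block, and leaving out each library.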

Additional observations from a re-analysis of the deposited data

How the results depend on the processing

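Counts of members lower in DE against PSC (61 to 69), LPO against AFE (84 to 94) and LPO against PSC (86 to 95) stayed within 1.5 times their values under every alternative run. The counts in AFE against DE moved when a library was left out. In that step 19 members were higher, with 9 to 24 when a library was left out (12 without DE library 2, 9 without AFE library 1 and 12 without AFE library 2). There 27 were lower, with 15 to 31 (15 without either AFE library). In all 6838 genes were called, with 4535 to 7894 (4535 without AFE library 2). Leaving out a DE or AFE library left 1 in that stage, and fewer genes were then called in all. These runs therefore cannot show whether a particular library sets the counts. Members higher in LPO against AFE numbered 5, with 9 under the filter of 5 FPKM in 2 libraries, 13, 13 and 12 with limma at pseudocounts of 1, 0.5 and 0.1, and 3 to 5 when a library was left out. All genes called in LPO against PSC were 13602, and 8604 with the 5 FPKM filter, which tests fewer genes. The vacuolar ATPase sum turned from a ratio of 1.17 to 0.729 (LPO over AFE) and from 1.62 to 0.900 (LPO over PSC) with CPM in place of FPKM shares. The LPO libraries also had the lowest FPKM sums, 345563 and 347824, beside 439098 to 467008 in the other stages, and the cause was not tested. Single changes that turned were COX6A2 in LPO against PSC (-0.02, and 0.37, 0.38 and 0.39 with limma), ATP6V0A2 in LPO against AFE (-0.45, and 0.03, 0.04 and 0.05 with limma), and with median centring in LPO against PSC COX7A2L (0.04 to -0.44), ATP6V0D1 (0.32 to -0.17) and ENSSSCG00000008056 (0.47 to -0.01). In LPO against PSC the vacuolar ATPase had 8 members of 23 higher and 11 lower, against 41.5% and 28.8% of all genes. After median centring, which shifts every gene by the all-gene median of 0.49, 5 vacuolar ATPase members were higher. Of 4903 values of named members under the alternatives, 4653 kept direction and call, and 166 of 199 called changes held under all of them. The median over complexes I to V in LPO against PSC ranged over -2.94 to -1.99. Mitochondrially encoded genes could not be left out of the library sizes because the file holds 0 of them, so that alternative was not run. The length-relative medians were added after the data were seen.

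No shared deviation of same-numbered libraries was seen: its correlation over genes lay between -0.0136 and 0.00782 over the 6 pairs of stages. That cannot show whether same-numbered libraries came from the same culture or run. With the replicate number as a block, 64 members were lower and 28 higher in DE against PSC, 27 and 17 in AFE against DE, 90 and 5 in LPO against AFE, and 91 and 11 in LPO against PSC. The block gave 9759, 6137, 10788 and 12596 genes called in these comparisons, and 107 members differing among the stages.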

Other observations

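TCIRG1 and NDUFS8 are neighbours on the same strand of chromosome 2, at 4844637 to 4860498 and 4862589 to 4867393. Both rose in DE against PSC (log2 change 2.39 and 1.45) and parted in LPO against AFE (0.59 and -2.49). The pair was picked after its values were seen, and a link between the 2 genes was not tested.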
